A study of Rattus norvegicus with 18 samples.

Results

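Cells of the colon move drugs, hormones, bile acids, lipids and dietary compounds across their membranes with 2 large groups of carriers. ABC proteins use ATP to pump substrates out of the cell or between its compartments, and pumps on the luminal face of the gut epithelium, such as P-glycoprotein and the breast cancer resistance protein, return foreign compounds to the gut lumen. Organic anion transporting polypeptides (Slco genes), organic cation and anion carriers (Slc22 genes) and the Slc47 extruders move charged organic compounds without ATP, many of them into the cell. The probe sets (groups of array probes read together as 1 signal) examined here were those annotated with exactly 1 symbol of the Abca to Abcg, Slco, Slc22a or Slc47a families. They numbered 90 out of 31099 on the array and stood for 67 of 14217 genes.

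Gene expression was measured in mucosal scrapings of distal and proximal colon from the same 9 male Sprague Dawley rats, with 1 Affymetrix array per rat and region. After 10 days on modified AIN-93G diet, every rat was given 15 mg per kg azoxymethane under the skin, and tissue was taken 6 h later. Azoxymethane is a carcinogen of the rat colon that alkylates DNA after metabolic activation. All samples analysed came from azoxymethane-treated rats, so the values compare regions and say nothing of what the injection changed. The series allocated its rats to 2 groups, but the labels do not place the rats in them, and rat 9 was not analysed here.

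Deposited signals had a trimmed mean that differed from array to array, between 211.2 and 342.4, and were therefore quantile normalized. A level below is log2(signal + 16), and a difference is distal minus proximal colon on that scale. A member passed where limma's adjusted p over all 21729 probe sets tested was below 0.05. That fit did not pair the arrays by rat. The 8 epithelial markers averaged 12.69 to 12.86 in distal and 12.71 to 13.00 in proximal arrays, but the scrapings also held other cells. Mean signal of 8 smooth muscle markers ran from 6.04 to 9.72 in distal and from 6.33 to 12.10 in proximal arrays, highest in the proximal array of rat 3 and then the distal arrays of rats 3 and 7. The proximal arrays of rats 3 and 6 were also the least like the others of their region (median r across probe sets 0.914 and 0.954, against 0.958 to 0.972 for the other proximal arrays), and the distal array of rat 3 was the least like the other distal ones (0.944). In tissue samples of this kind, fewer cells of a type and less RNA per cell cannot be told apart.

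The comparison asked which carriers the distal and the proximal colon expressed at different levels. The luminal efflux pumps Abcb1a and Abcg2 and the organic cation carrier Slc22a3 were 2.42-fold to 3.18-fold lower in distal than in proximal colon. The arrays of the regions did not overlap for Abcg2, Slc22a3 and 1 of the 2 probe sets of Abcb1a. Abcc6 was 1.65-fold lower there, and the uptake carrier Slco2b1 1.53-fold and 1.35-fold on its 2 probe sets. Differences toward distal colon were smaller, at most 1.45-fold, and included the exporter Abcc1 and ABC proteins that serve translation.

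Of the 90 probe sets, 56 (42 genes) lay above the filter on low signal and were tested. Toward distal colon 10 passed and toward proximal colon 10, which is 35.7% together, against 26.5% of all probe sets tested (14.3% higher in distal and 12.2% in proximal colon). A difference that passed and was 1.5-fold or more was seen in 0 member probe sets toward distal and 6 (5 genes) toward proximal colon, against 3.29% and 4.6% of all tested. The median difference over the 56 was 0.04, beside 0.03 over all probe sets. With 1 probe set per gene, 8 of 42 genes passed toward distal and 8 toward proximal colon, against 16.2% and 14.5% of all genes. With the scaling of the deposited values kept, 2 probe sets passed toward distal and 10 toward proximal colon (background 3.63% and 12.1%), so the even split rests on the scaling. With arrays centred on their medians the counts were 9 and 9 (background 13.8% and 9.16%). They were 8 and 9 when proximal rats 3 and 6 were left out (12.7% and 12.4%), and 9 and 14 when the 3 arrays of highest smooth muscle signal were (13.3% and 12.9%).

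**Figure D1:**
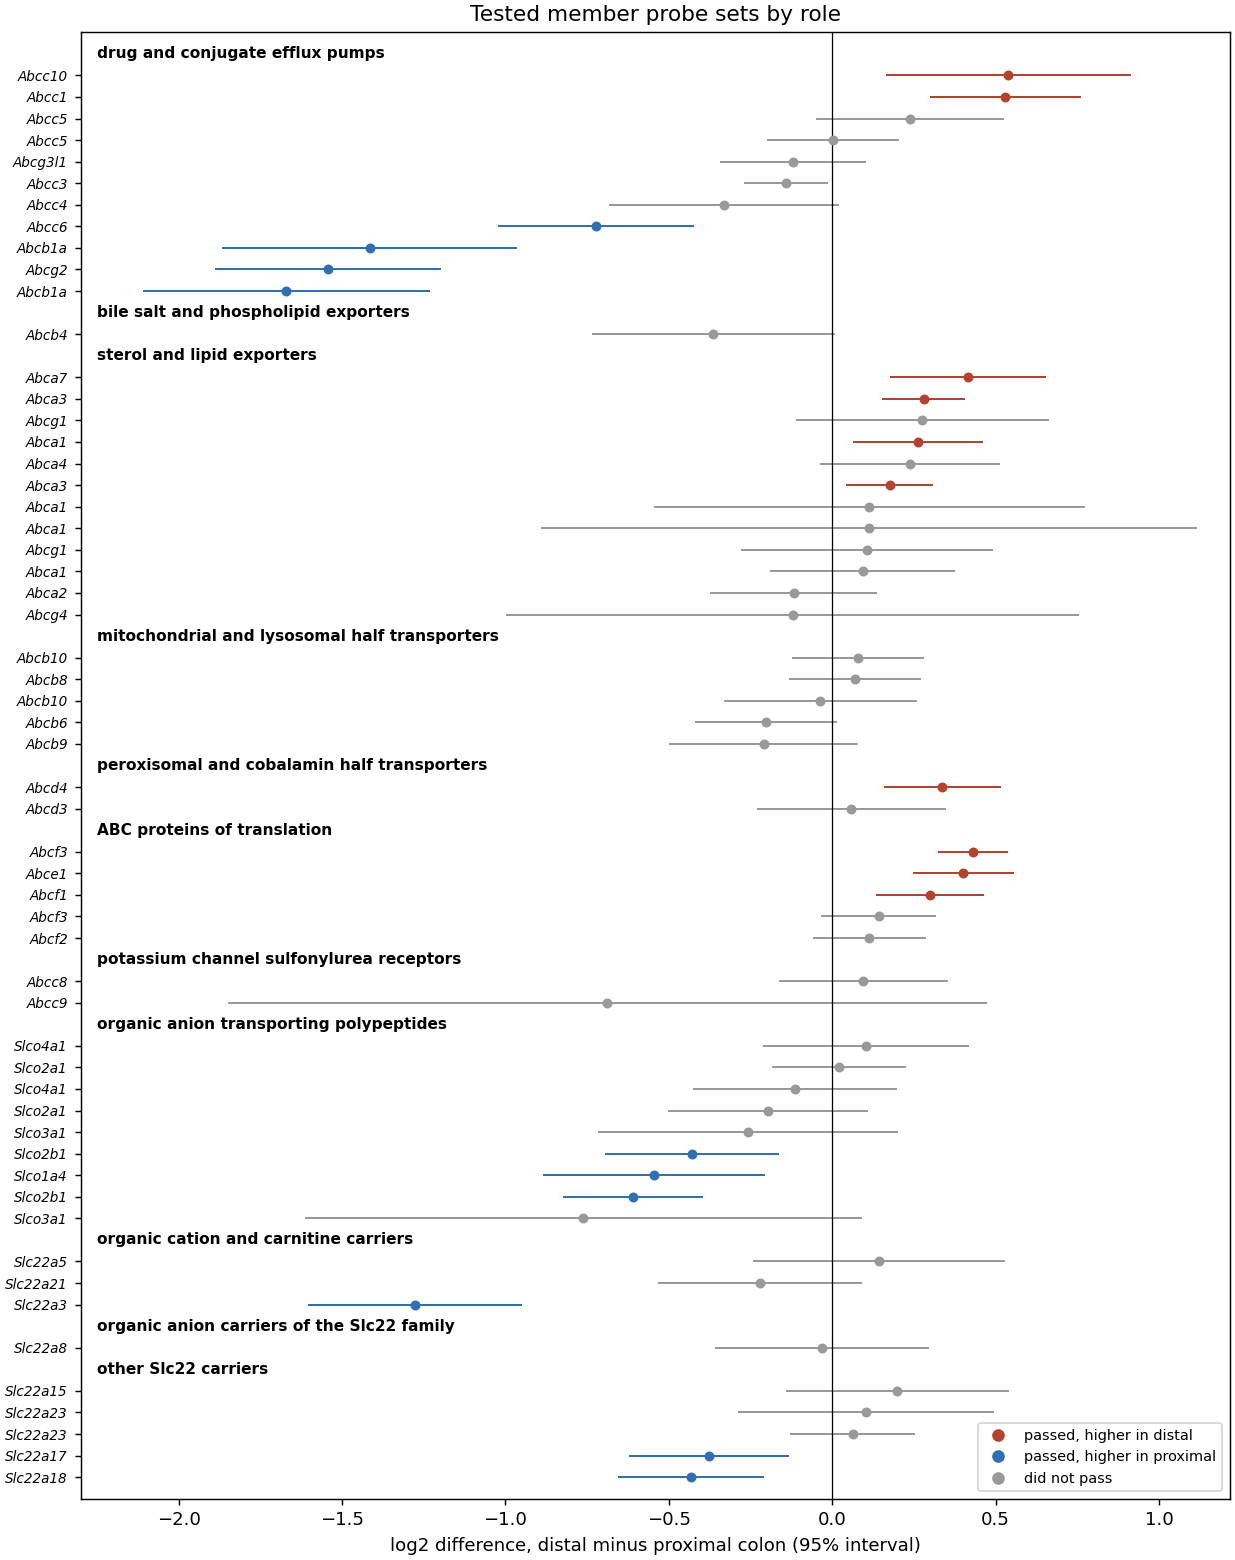
Difference between distal and proximal colon (x axis, log2, distal minus proximal, with limma's 95% interval) for the 56 tested member probe sets, grouped by role down the page; a gene with several probe sets appears once for each. Red points passed as higher in distal colon and blue points as higher in proximal colon (10 each), and grey points did not pass; the Abcb1a, Abcg2 and Slc22a3 points lie farthest from 0.

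Efflux pumps that guard the lumen had the largest differences. Abcb1a encodes P-glycoprotein, which expels many lipophilic drugs. Its probe set 1370464_at read 8.18, 8.73 and 9.60 (lowest, median and highest of 9 rats) in distal colon, against 9.76, 10.52 and 11.07 in proximal colon. The highest distal array thus lay below the lowest proximal one. The difference was -1.67 ± 0.21 (SE, 9 of 9 rats, limma adjusted p = 6.72e-06), that is 3.18-fold lower in distal colon. The other Abcb1a probe set, 1370465_at, gave a difference of -1.42 ± 0.22 (adjusted p = 5.98e-05, 9 of 9 rats), with 7.26 to 9.17 in distal and 9.13 to 10.30 in proximal arrays, which overlap narrowly. A probe set annotated to both Abcb1a and its paralog Abcb1b, and therefore no member, differed by -1.32 ± 0.24 in the same direction (adjusted p = 0.000366). Signals of these 2 paralogs may be shared between their probes, so the split between them is uncertain.

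Abcg2, the breast cancer resistance protein, exports drugs, sulfate conjugates, urate and porphyrins. It read 7.77, 8.43 and 9.35 in distal colon, against 9.73, 10.21 and 10.27 in proximal colon. Proximal arrays were tightly grouped (10.09 ± 0.21, SD, n = 9), while distal ones were spread more widely (8.55 ± 0.50, n = 9). Distal colon was 2.91-fold lower (difference -1.54 ± 0.17, 9 of 9 rats, adjusted p = 8.87e-07). Abcg3l1, also of family G, had a difference of -0.12 ± 0.11 that did not pass (adjusted p = 0.453).

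The conjugate exporters of family C went in both directions. Abcc6, whose loss causes ectopic mineralization and which is best known from liver and kidney, read 5.23, 6.17 and 6.48 in distal colon, against 6.32, 6.83 and 7.05 in proximal colon. It was 1.65-fold lower in distal colon (difference -0.72 ± 0.14, 9 of 9 rats, adjusted p = 0.000895). Its distal signals lay close to the filter level of 5.54, and its difference shrank to -0.45 with a pseudocount of 64. Abcc1, a basolateral exporter of glutathione conjugates, had the reverse order. It read 7.87, 8.24 and 8.78 in distal colon, against 7.45, 7.72 and 8.12 in proximal colon, and was 1.44-fold higher in distal colon (difference 0.53 ± 0.11, 8 of 9 rats, adjusted p = 0.00133). Abcc10, a lipophilic drug exporter, was 1.45-fold higher in distal colon (difference 0.54 ± 0.18, 7 of 9 rats, adjusted p = 0.0315). That call was lost with rat as a block (adjusted p = 0.0576), with the deposited scaling (0.114) and without rat 1, 3, 6 or 7 (0.0639 to 0.0988). It was lost, too, when proximal rats 3 and 6 were left out (difference 0.34, adjusted p = 0.109) and without the 3 arrays of highest smooth muscle signal (0.133).

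Other members of the family did not pass. Abcc3, which returns glucuronides and bile acids to the blood, read 10.69 to 10.94 in distal and 10.72 to 11.23 in proximal arrays. Its difference of -0.14 had an interval of -0.27 to -0.01 (adjusted p = 0.0996), and it passed without rat 3 (adjusted p = 0.0299) or without the 3 arrays of highest smooth muscle signal (0.0370). Abcc4, an exporter of cyclic nucleotides and conjugates, differed by -0.33 (interval -0.68 to 0.02, adjusted p = 0.162), lower in distal colon in 8 of 9 rats. It read 7.18 to 7.74 in the 3 arrays with the most smooth muscle signal and 7.20 in the proximal array of rat 1, against at most 6.90 in the others. Without those 3 arrays the difference was -0.40 (adjusted p = 0.0109), and without rat 7 it was -0.46 (0.0460). The 2 probe sets of Abcc5, also an exporter of cyclic nucleotides, had differences of 0.24 and 0.00, and the first passed with rat as a block (adjusted p = 0.0245). Abcc2, the luminal counterpart of Abcc3, lay below the filter with 4.83 to 5.65 in distal and 4.79 to 5.89 in proximal arrays.

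**Figure D2:**
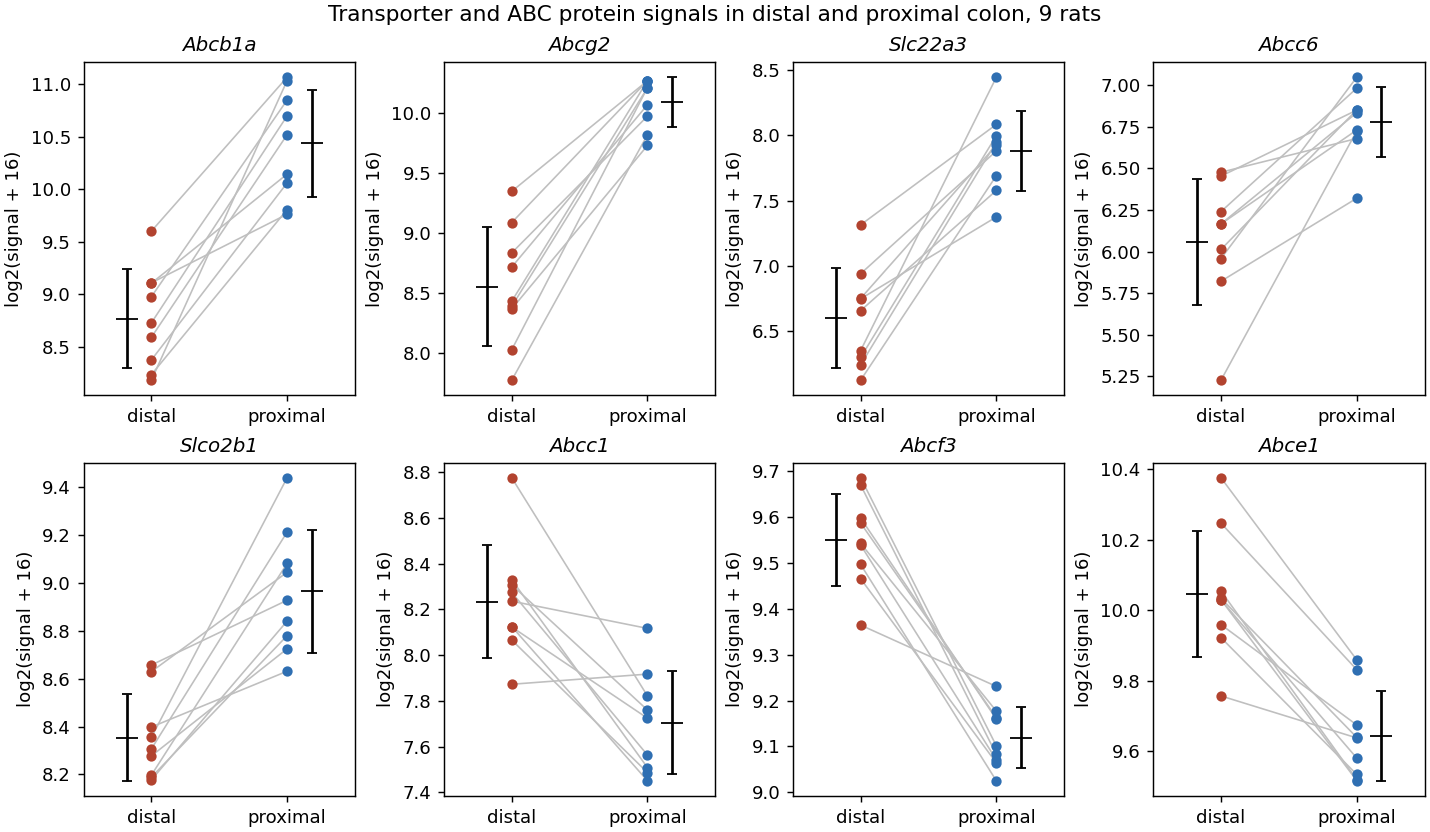
Level of 8 members, each on its probe set of highest mean (y axis, log2(signal + 16); axes differ between panels) in distal (red) and proximal (blue) colon, 1 point per rat, with lines joining the regions of a rat and black bars for mean ± SD (n = 9 each). The 9 rats of Abcb1a, Abcg2, Slc22a3, Abcc6 and Slco2b1 were lower in distal colon, the 9 of Abcf3 and Abce1 were higher there, and 8 of 9 were higher for Abcc1.

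Organic ion carriers were led by Slc22a3, the extraneuronal monoamine carrier OCT3, which takes up histamine, serotonin, catecholamines and cationic drugs. It read 6.12, 6.66 and 7.31 in distal colon, against 7.37, 7.92 and 8.44 in proximal colon. The regions did not overlap, by a small margin, and distal colon was 2.42-fold lower (difference -1.28 ± 0.16, 9 of 9 rats, adjusted p = 4.70e-06). The carnitine carrier Slc22a5 read 9.06, 10.14 and 10.81 in distal colon, against 9.48, 9.86 and 10.60 in proximal colon. Its difference of 0.14 (interval -0.24 to 0.53, adjusted p = 0.615) did not pass. Slc22a21, a second carnitine carrier of rodents, differed by -0.22 ± 0.15 (adjusted p = 0.301). The kidney carriers Slc22a2 and Slc47a1 and the ergothioneine carrier Slc22a4 lay below the filter, at 4.11 to 6.28 over all arrays.

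Among Slc22 carriers with less settled substrates, 2 of 5 probe sets passed, both lower in distal colon (12.2% of all probe sets tested were). Slc22a18, an imprinted gene, read 9.30, 9.92 and 10.16 in distal colon, against 9.94, 10.24 and 10.67 in proximal colon, and was 1.35-fold lower in distal colon (9 of 9 rats, adjusted p = 0.00526). With arrays centred on their medians its adjusted p was 0.0537. Slc22a17, described as a receptor for the iron-binding protein lipocalin 2, was 1.30-fold lower in distal colon (9 of 9 rats, adjusted p = 0.0213). Rats 3 and 6 had its highest proximal values (8.33 and 8.02), and without those 2 arrays its difference was -0.25 in place of -0.38 (adjusted p = 0.0632). The call was also lost without rat 1 (0.0563) or 4 (0.0548). Slc22a15 and both probe sets of Slc22a23 had differences of 0.06 to 0.20 that did not pass. Of the 7 genes for organic anion carriers in this family, most of them known from the kidney or liver, 6 lay below the filter, and a probe set of Slc22a8 differed by -0.03 (adjusted p = 0.906).

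Organic anion transporting polypeptides passed toward proximal colon in 3 of 9 tested probe sets and toward distal colon in 0, against 12.2% and 14.3% of all tested. Slco2b1, which takes up sulfated steroids, statins and other drugs in the gut, read 8.18, 8.31 and 8.66 in distal colon on probe set 1368295_at, against 8.63, 8.93 and 9.44 in proximal colon. The regions overlapped by a narrow margin. It was 1.53-fold lower in distal colon (difference -0.61 ± 0.10, 9 of 9 rats, adjusted p = 0.000170). Its second probe set was 1.35-fold lower there (adjusted p = 0.0172, and 0.0504 without rat 8). Slco1a4, a carrier of bile acids, steroid conjugates and digoxin in rat liver and brain vessels, read 5.01 to 6.42 in distal and 5.92 to 6.59 in proximal arrays. This was 1.46-fold lower in distal colon (8 of 9 rats, adjusted p = 0.0173), but close to the filter level. Its other probe set lay below the filter. The difference was -0.30 with a pseudocount of 64 in place of -0.55, and its adjusted p was 0.0553 when proximal rats 3 and 6 were left out.

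Several carriers of this family were measured and did not pass. The prostaglandin carrier Slco2a1 read 8.89, 9.42 and 9.63 in distal colon, against 8.87, 9.38 and 9.60 in proximal colon. Its difference of 0.02 had an interval of -0.18 to 0.22 (adjusted p = 0.904), and its second probe set gave -0.20. Slco4a1, a thyroid hormone carrier, had differences of -0.11 and 0.10 on its 2 probe sets, and the first was -0.32 without the proximal arrays of rats 3 and 6 (adjusted p = 0.0213). Slco3a1 is described with the smooth muscle arrays. The other 8 genes, among them the liver carriers Slco1a1 and Slco1b2, lay below the filter.

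Regions did not overlap for 1 tested member probe set higher in distal colon (2.38% of all probe sets tested) and 3 higher in proximal colon (2.84%). These were Abcf3 toward distal colon and Abcb1a, Abcg2 and Slc22a3 toward proximal colon. Their upstream sequences are shown because they are the members whose regions were fully apart. Each is the 250 bases before the RefSeq start (build GRCr8), 5′ to 3′ on the strand of the gene, and capitals mark matches on either strand to GGGCGG, known as the GC box, to CCAAT, to the TATA box TATAAA, or to GCGTG, which is the core of the aryl hydrocarbon receptor site.
Abcb1a, chr4:26397649-26397898, minus strand: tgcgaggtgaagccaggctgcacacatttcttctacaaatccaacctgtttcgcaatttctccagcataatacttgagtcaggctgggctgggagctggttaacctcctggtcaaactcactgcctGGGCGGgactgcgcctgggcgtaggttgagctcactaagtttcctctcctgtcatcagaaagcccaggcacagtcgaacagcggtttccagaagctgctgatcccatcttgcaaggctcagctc
Abcg2, chr4:89075224-89075473, plus strand: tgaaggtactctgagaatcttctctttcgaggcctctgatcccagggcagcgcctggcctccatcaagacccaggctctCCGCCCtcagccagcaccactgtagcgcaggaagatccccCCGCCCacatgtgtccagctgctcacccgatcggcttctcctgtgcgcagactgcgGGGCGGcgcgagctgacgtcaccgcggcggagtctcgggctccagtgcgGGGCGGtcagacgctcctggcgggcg
Slc22a3, chr1:50782968-50783217, plus strand: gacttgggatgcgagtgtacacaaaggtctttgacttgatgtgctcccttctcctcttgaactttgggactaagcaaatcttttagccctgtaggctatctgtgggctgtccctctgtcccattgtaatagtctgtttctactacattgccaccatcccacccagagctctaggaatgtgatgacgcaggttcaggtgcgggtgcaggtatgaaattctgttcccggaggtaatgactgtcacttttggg
Abcf3, chr11:93856596-93856845, minus strand: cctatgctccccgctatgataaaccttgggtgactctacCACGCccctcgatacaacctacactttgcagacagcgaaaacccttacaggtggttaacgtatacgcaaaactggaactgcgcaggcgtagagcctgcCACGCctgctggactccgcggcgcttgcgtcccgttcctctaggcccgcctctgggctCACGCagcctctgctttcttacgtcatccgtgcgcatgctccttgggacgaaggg

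The Abcb1a window held 1 GC box and that of Abcg2 held 4, none overlapping another motif, while the Slc22a3 window held none of the 4 motifs. Abcf3 had 3 aryl hydrocarbon receptor cores, at 211, 113 and 55 bases before the start. Over the windows of all 27457 genes, 32.4% held a GC box, 34.3% a CCAAT box, 13.1% a TATAAA and 27.2% a GCGTG. No motif was thus common to all 3 genes higher in proximal colon, though Abcb1a and Abcg2 both held the GC box. Upstream sequences, matched by gene symbol, were found for 56 of the 67 member genes.

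Abcf3 belongs to the ABC proteins that have no membrane part and act with ribosomes, of which 3 of 5 tested probe sets were higher in distal colon, against 14.3% of all tested (1 of 5 and 3.63% with the deposited scaling). It read 9.36, 9.54 and 9.69 in distal colon on probe set 1371456_at, against 9.02, 9.10 and 9.23 in proximal colon. The difference was small but the arrays of each region lay close together, and it was 0.43 ± 0.05 (1.35-fold, 9 of 9 rats, adjusted p = 3.47e-06). A second Abcf3 probe set, at 7.26 to 7.96 over all arrays, differed by 0.14 in 9 of 9 rats and did not pass (adjusted p = 0.231). Abce1, which splits ribosomes for recycling, read 9.76, 10.03 and 10.37 in distal colon, against 9.52, 9.64 and 9.86 in proximal colon. It was 1.32-fold higher in distal colon (9 of 9 rats, adjusted p = 0.000427), and Abcf1, a factor of translation initiation, 1.23-fold (9 of 9 rats, adjusted p = 0.00774). With the deposited scaling, Abcf3 passed (difference 0.34, adjusted p = 0.0381), and Abce1 (0.30, adjusted p = 0.142) and Abcf1 (0.20, adjusted p = 0.252) did not. Abcf2 differed by 0.11 (adjusted p = 0.343).

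Sterol and lipid exporters passed in 4 of 12 tested probe sets, 4 toward distal and 0 toward proximal colon, against 14.3% and 12.2% of all tested. None of the 4 passed with the deposited scaling (background 3.63%). Abca7, a phospholipid exporter that also acts in phagocytosis, read 8.75, 9.07 and 9.37 in distal colon, against 8.26, 8.67 and 9.16 in proximal colon (1.34-fold, 7 of 9 rats, adjusted p = 0.0102, and 0.131 with the deposited scaling). Abca3, the lipid pump of lung surfactant, was 1.21-fold and 1.13-fold higher on its 2 probe sets (8 of 9 rats each, adjusted p = 0.00181 and 0.0459, against 0.216 and 0.679 with the deposited scaling). The second of these calls also ended with arrays centred on their medians (0.0639), with no filter (0.0574), without proximal rats 3 and 6 (0.0925) and without rat 1, 4, 6, 7 or 8 (0.0877 to 0.126). Abcg1, which passes cholesterol to lipoproteins, differed by 0.28 and 0.11 and did not pass. Neither did Abca2 (-0.12), a lipid carrier of lysosomes, nor Abca4 (0.24), the retinoid carrier of the eye. Abca5, Abca8 and the peroxisomal Abcd2 lay below the filter. The sterol pumps of the brush border, Abcg5 and Abcg8, lay below the filter at 4.22 to 5.73 over all arrays.

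Abca1 loads cholesterol onto apolipoproteins, and its 4 probe sets did not behave alike. On 1383355_at it was 1.20-fold higher in distal colon (7.12, 7.44 and 7.73 in distal, against 6.88, 7.17 and 7.43 in proximal colon, 7 of 9 rats, adjusted p = 0.0463). This call ended with rat as a block (0.0713), with the deposited scaling (0.557), with no filter (0.0688) and without rat 1, 4, 5, 7, 8 or 10 (0.0656 to 0.142). On 1382431_at the regions differed by 0.11 (interval -0.89 to 1.12, adjusted p = 0.891), but the rats differed widely. Rats 2, 3, 6 and 10 read 8.52, 8.92, 8.32 and 8.09 in distal colon and 8.30, 9.36, 8.74 and 8.00 in proximal colon. Every array of the other 5 rats read between 6.13 and 6.97. The SD between rats was 0.99 in distal and 1.25 in proximal colon, against a median over the tested members of 0.25 in distal and 0.29 in proximal colon. On 1394490_at the arrays of rats 2, 3 and 6 were again the highest of each region, at 7.32 to 7.54 in distal and 7.48 to 8.40 in proximal colon, and the other rats read 5.73 to 7.13. The remaining probe sets, 1383355_at and 1384381_at, had narrower ranges of 6.88 to 7.73 and 5.27 to 6.28 over all arrays. On 1383355_at the proximal arrays of these 3 rats were again the highest of their region (7.36, 7.38 and 7.43, against at most 7.20), and the distal ones were not.

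**Figure D3:**
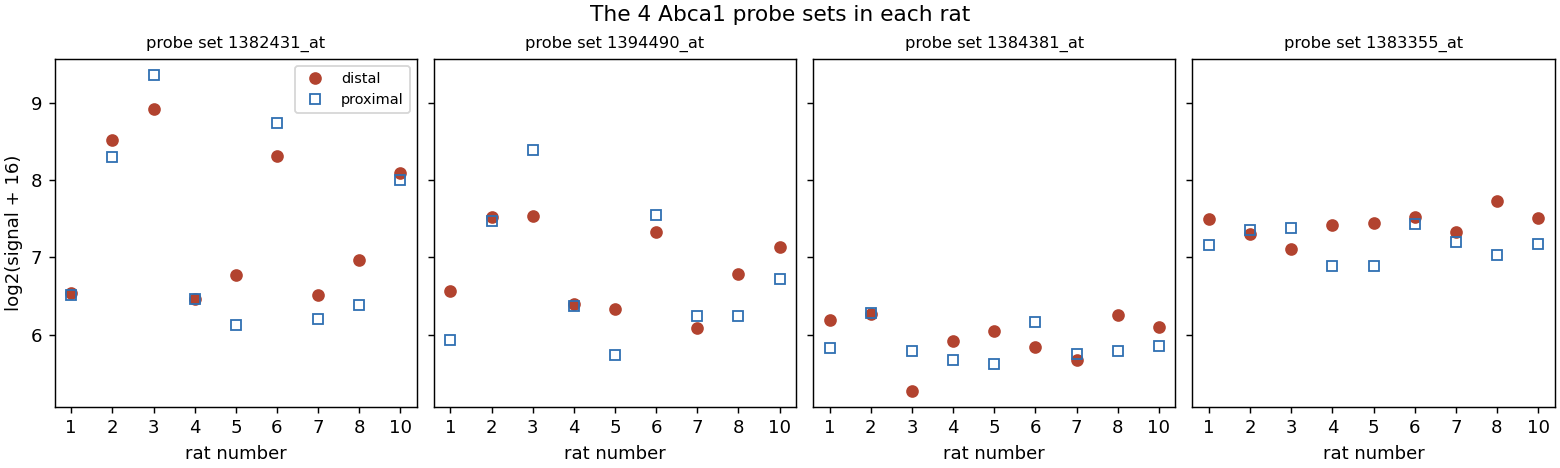
Level of Abca1 (y axis, log2(signal + 16)) in each rat (x axis, rat number) on its 4 probe sets, with filled red circles for distal and open blue squares for proximal colon. On 1382431_at both arrays of rats 2, 3, 6 and 10 lie at 8.00 or above and those of the other 5 rats at 6.97 or below, while on 1383355_at all arrays lie between 6.88 and 7.73.

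Of the tested transporters of organelles that work as dimers, only Abcd4 passed. Abcb10, which serves heme synthesis in the inner mitochondrial membrane, read 10.22, 10.58 and 10.76 in distal colon on its stronger probe set, against 10.02, 10.50 and 10.69 in proximal colon. Its difference of 0.08 had an interval of -0.12 to 0.28 (adjusted p = 0.590). The differences of the mitochondrial Abcb8, the porphyrin carrier Abcb6 and the lysosomal peptide carrier Abcb9 were 0.07, -0.20 and -0.21. With Abcb10 included, 0 of the 5 probe sets of these 4 genes passed, against 26.5% of all probe sets tested. Abcb9 passed without the 3 arrays of highest smooth muscle signal (adjusted p = 0.0443). Abcd3, which brings fatty acids into peroxisomes, read 9.80 to 10.61 in distal and 9.43 to 10.54 in proximal arrays (difference 0.06, adjusted p = 0.796). Abcd4, which exports cobalamin from lysosomes, was 1.26-fold higher in distal colon (difference 0.34 ± 0.09, 9 of 9 rats, adjusted p = 0.00633). With the deposited scaling that difference was 0.21 (adjusted p = 0.263). Abcb4, the phosphatidylcholine pump of bile, differed by -0.36 (interval -0.73 to 0.01, adjusted p = 0.142), and the bile salt pump Abcb11 lay below the filter.

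**Figure D4:**
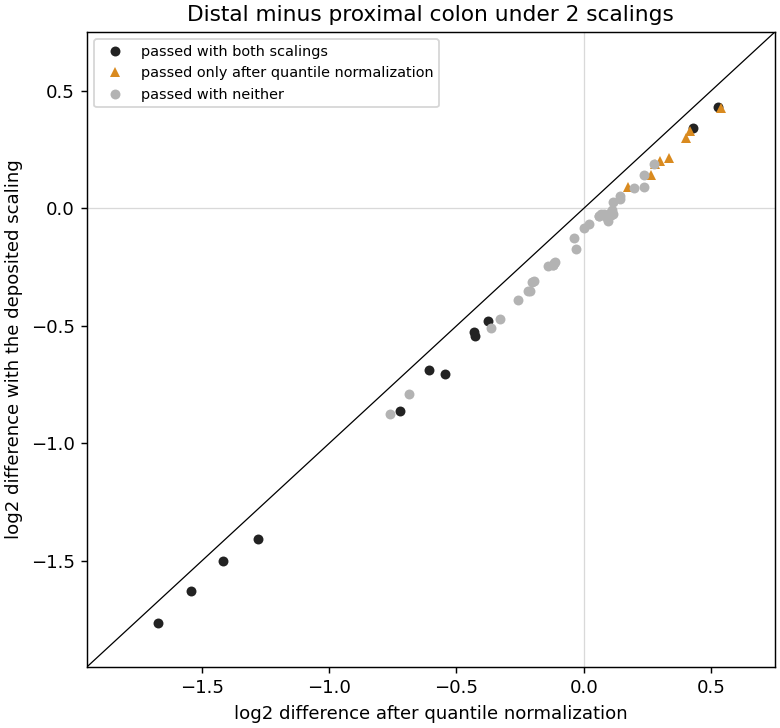
Difference between distal and proximal colon for the 56 tested member probe sets after quantile normalization (x axis, log2) and with the deposited scaling (y axis, log2), with the line of equal values. All points lie below the line; 12 probe sets passed with both scalings (black), and 8, all higher in distal colon, passed only after quantile normalization (orange triangles).

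Some members were highest in the arrays with the most smooth muscle signal. Abcc9, the sulfonylurea receptor of potassium channels in smooth muscle, read 9.51 in the proximal array of rat 3 and 8.00 and 6.99 in the distal arrays of rats 3 and 7. Its other arrays lay between 4.32 and 6.97. Abcg4, a sterol exporter best known from the brain, read 9.86 in the proximal array of rat 3 and 7.52 and 7.41 in the distal arrays of rats 3 and 7. Its other arrays read 5.69 to 6.71. Slco3a1, a carrier of prostaglandins and thyroxine, read 9.45, 7.26 and 7.05 in these arrays on 1373734_at, against 4.74 to 6.75 elsewhere. Abca8a, below the filter, read 9.56, 7.65 and 7.19 there. On these probe sets of the 4 genes the 3 highest values lay in these 3 arrays. Abcc9, Abcg4 and Abca8a were named after their values were seen, and 1373734_at is the Slco3a1 probe set of wider spread. The count therefore follows in part from that choice, and how many of all probe sets share this order was not counted. Other probe sets of Slco3a1 and Abcc9 did not share this order: on 1370571_at of Slco3a1 the proximal array of rat 3 was highest (7.87), but that of rat 5 (6.98) exceeded both distal arrays (6.57 and 6.82). Their part in the values was not tested. Abcc8, the sulfonylurea receptor of pancreatic beta cells, differed between regions by 0.09 (adjusted p = 0.620). Abcc9 differed by -0.69 (interval -1.85 to 0.47, adjusted p = 0.398) and Slco3a1 on 1373734_at by -0.76 (adjusted p = 0.182). Without the 3 arrays that probe set passed (adjusted p = 0.0207), as it did with rat as a block (0.0370). The other probe set of Slco3a1 differed by -0.26 (adjusted p = 0.423) and passed in neither case (0.359 and 0.335). The mean of both differed by -0.51 (0.206). Their levels over all arrays were nearly equal. The other probe set averaged 6.26 in distal and 6.51 in proximal colon, against 6.00 and 6.76 on 1373734_at. Abcg2 read 9.73 in the proximal array of rat 3, its lowest proximal value, and without the 3 arrays its difference was -1.49, against -1.54 with them.

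**Figure D5:**
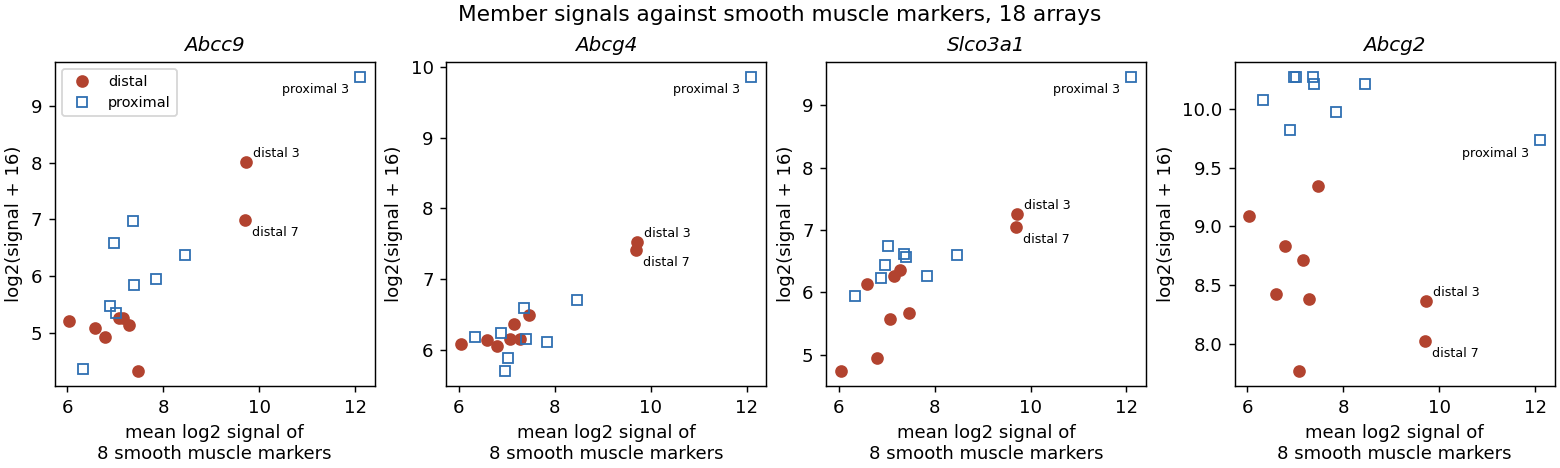
Level of Abcc9, Abcg4, Slco3a1 and Abcg2 (y axis, log2(signal + 16); for Slco3a1 probe set 1373734_at) against the mean log2 signal of 8 smooth muscle markers (x axis) in the 18 arrays, with filled red circles for distal and open blue squares for proximal colon. Abcc9, Abcg4 and Slco3a1 reach 9.45 to 9.86 in the proximal array of rat 3, while every distal point of Abcg2 lies below its 9 proximal points.

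Sensors that regulate these carriers were described from a list of 16 genes, of which 14 were measured. Toward distal colon 2 passed and toward proximal colon 2, against 16.2% and 14.5% of all genes, with a median difference of 0.03. The bile acid receptor Nr1h4 read 9.27, 9.66 and 9.97 in distal colon, against 10.18, 10.57 and 11.07 in proximal colon (difference -0.96 ± 0.12, adjusted p = 7.65e-06). Nfe2l2, which switches on antioxidant and efflux genes, was 1.36-fold lower in distal colon (9 of 9 rats, adjusted p = 8.14e-06), and Hnf4a and Rxrb were 1.28-fold and 1.17-fold higher there. The drug sensor Nr1i2 differed by 0.01 ± 0.10 (adjusted p = 0.957) and the aryl hydrocarbon receptor Ahr by -0.15 ± 0.16 (adjusted p = 0.538).

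From a list of 19 other carriers and scaffold proteins, 14 were measured, and 4 passed toward distal and 4 toward proximal colon, against 16.2% and 14.5% of all genes (median difference -0.08). Slc51a, part of the basolateral bile acid exporter, read 8.60, 9.04 and 9.29 in distal colon, against 10.30, 10.76 and 11.33 in proximal colon (3.47-fold lower, 9 of 9 rats, adjusted p = 5.41e-09). Cftr, a chloride channel of the ABC superfamily whose symbol lies outside the families examined, was 1.78-fold lower in distal colon (adjusted p = 1.57e-05). The nucleoside carrier Slc28a2 (2.05-fold) and the monocarboxylate carrier Slc16a1 (1.20-fold) were lower there as well. Rdx, which anchors membrane proteins to actin, was 3.14-fold higher in distal colon, the peptide carrier Slc15a1 4.58-fold, the nucleoside carrier Slc29a2 1.27-fold and the peptide pump Tap1 1.25-fold. For Slc15a1 the interval was wide, from 1.44 to 2.95 (9 of 9 rats, adjusted p = 0.000142). Its lowest proximal values, 4.77 and 5.11, came from rats 6 and 3, whose proximal arrays were the least like their region. Proximal values of the remaining rats spanned 6.83 to 8.12, still below the lowest distal value of 8.59. The 4.58-fold includes rats 3 and 6, and a fold without them was not computed. Vil1 and Krt20, brush border and surface markers of the epithelium, were 1.34-fold and 1.40-fold lower in distal colon (adjusted p = 0.000438 and 0.000921), in the direction of Abcb1a and Abcg2. The other 6 epithelial markers did not pass: Krt8 and Krt18 differed by 0.04 and 0.17, and Epcam, Cdh1, Lgals4 and Cdh17 by -0.06 to -0.01. The part of these markers in the carriers' differences was not tested.

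The 34 member probe sets below the filter included all probe sets of 25 genes. When no filter was applied, 8 of the 90 probe sets passed toward distal and 11 toward proximal colon (background 9.67% and 8.58%). Slc22a13, a urate and nicotinate carrier, was the one added, with a difference of -0.52 (adjusted p = 0.0320) at 4.33 to 5.28 in distal and 4.49 to 5.79 in proximal arrays. Of the 12 genes with several tested probe sets, Abca1 and Abcf3 disagreed on the call, and 0 genes passed in both directions.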

How the data were processed

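The values the authors deposited are linear intensities, 1 per probe set, from MAS5 (per the submitters' processing notes). Neither its version nor its scaling target was given in the sources used here, and no detection calls were used. After control probe sets were removed (31042 left), log2(signal + 16) was quantile normalized, the lowest 30% by mean over all 18 arrays (below 5.54) were left out, and distal minus proximal colon was tested on the other 21729 with limma 3.58.1 in R 4.3.3 (lmFit, eBayes with an intensity trend, two-sided, Benjamini-Hochberg). Standard errors are limma's moderated ones. Rat was not in this main fit, so its standard errors, intervals and adjusted p treat the arrays as independent. Counts of rats are given beside them as description. Adding 16 understates the change of low signals. Symbols came from the array annotation, which can be old. For a gene measured more than once, the probe set of highest mean stood for it. On the array 20826 had 1 symbol, 436 had several (2 of them with a symbol of these families) and 9780 were unnamed here. The genes of all 90 member probe sets were found in a table of rat genes (GRCr8, names only). Columns of no sample numbered 0. Figures and tables were made in Python 3.11.15 with pandas 2.3.3, numpy 2.4.6 and matplotlib 3.10.9.

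The members and gene lists were chosen with earlier results of these data known. Named with values were genes past the threshold at 1.5-fold or more, the 6 with the highest mean signal, and a set of well-known carriers, of which 13 were tested and 7 lay below the filter. Abcb1b had no probe set of its own. Further members were named to complete each role, and some of these (Abcc9, Abcg4, Abca8a) after their values were seen. The alternatives were the deposited scaling, median-centred arrays, pseudocounts of 1 and 64, no filter, a filter at 50%, rat as a block, the mean of a gene's probe sets, and the arrays or rats left out. The rat number pairs the arrays because both come from 1 animal. Deviations from the region means correlated within rats with a median r of 0.226 (0.000945 to 0.569). The lowest were rats 5, 6 and 7 (0.00803, 0.0636 and 0.000945). Between rats the median was -0.0308, but subtracting the region means itself makes that value slightly negative, so it is no independent contrast. Of 153 pairs of arrays, none shared more than 0.00643% of values. The fit was tested on simulated data with independent noise in every array, which cannot show the effect of arrays that share a rat. The number of arrays limits the precision.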

Additional observations from a re-analysis of the deposited data

Results flagged for a closer look

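Of 54 sets of 9 values (27 probe sets of named members in each region), 5 had a lowest or highest array far from the others, where chance gives about 1 in 20. The proximal array of rat 3 was high for Slco3a1 on probe set 1373734_at (9.45, against 5.94 to 6.75 in the other proximal arrays) and low for Slco2a1 on 1372889_at (8.87, against 9.25 to 9.60). That array also had the highest smooth muscle signal, and the part of this in the 2 values was not tested. Slc22a5 was high in the proximal array of rat 6 (10.60, against 9.48 to 10.02). Abcc1 was high in the distal array of rat 6 (8.78, against 7.87 to 8.33), and Abcc6 was low in the proximal array of rat 7 (6.32, against 6.68 to 7.05).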

How the results depend on the processing

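The scaling between arrays changed the counts most. With the deposited scaling, member probe sets higher in distal colon numbered 2 in place of 10, and those higher in proximal colon stayed at 10. The deposited scaling moved the median of all probe sets to -0.09, against 0.03 after quantile normalization. Over the other alternatives the counts were 7 to 10 toward distal and 8 to 14 toward proximal colon, with 7 to 10 and 9 to 11 when both arrays of 1 rat were left out. With rat as a replicate block they were 9 and 11. Apart from the deposited scaling, no count moved by over 1.5 times. Shares over all probe sets were not counted for rat as a block, 1 rat left out, the pseudocounts or the filter at 50%. Member counts under these settings therefore have no background to be read against. The differences of Abcb1a, Abcg2, Slc22a3, Abcc6 and Abcc1 kept their direction and passed under every alternative run, except that Abcc6 was not tested with the filter at 50%. Some differences close to 0, none of which passed in either form, changed sign. Over all tested members, 13 did so with the deposited scaling. Among the genes named by rule these were Abca1 (-0.004, -0.041 and -0.023 on 1382431_at, 1384381_at and 1394490_at), Abcb10 (-0.022 on 1390781_at), Abcd3 (-0.034), Slco2a1 (-0.066 on 1372889_at) and Slco4a1 (-0.030 on 1369437_at), and the others were Abcc5 (-0.083 on 1387030_at), Abcg1 (-0.029 on 1373995_at), Abcb8 (-0.025), Abcc8 (-0.055) and both probe sets of Slc22a23 (-0.018 and -0.030). Of the named genes, those that changed sign without the proximal arrays of rats 3 and 6 were Abcb10 (-0.028), Abcd3 (-0.030) and Slco2a1 (-0.028). Abcb10 on 1382963_at gave 0.016 with median-centred arrays, Abcd3 gave -0.002 without the 3 arrays of highest smooth muscle signal, and Slco2a1 gave -0.088 as the mean of its probe sets. The cause of these changes was not tested. Leaving out 1 rat gave -0.110 to 0.004 for Abcb10 on 1382963_at, -0.029 to 0.115 for Abcd3 and -0.022 to 0.068 for Slco2a1 on 1372889_at.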
